A study of Apis mellifera with 12 samples.

Results

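The microRNAs (miRNAs) miR-1 and miR-133, which are muscle miRNAs in insects, were followed in pools of fat body RNA from honey bee workers (Apis mellifera). They were matched by reporter name (ame-miR-1 and ame-miR-133), which gave 2 of the 168 bee miRNA reporters on the array. The dsRNA-Vg group held 6 pools from workers that were given double-stranded RNA (dsRNA) targeting vitellogenin, the precursor of yolk protein, by injection when newly emerged. The dsRNA-GFP group held 6 pools from workers injected in the same way with dsRNA against green fluorescent protein, the sham control, and both groups received 2 µL at 10 µg/µL. Per the labels, all bees were adult foragers 15 days old, and each pool mixed equal amounts of RNA from 5 bees, so the spread between single bees is not seen. The pools are described as biological samples of different bees. The vitellogenin mRNA itself was not analysed here.

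A miRNA is a short RNA that pairs with target mRNAs, mainly through its seed, and lowers their translation or stability. In the fly, miR-1 is switched on in the muscle lineage by the muscle transcription factors Twist and Mef2 and is needed for muscle to grow and keep its form. In vertebrates, miR-1 promotes muscle differentiation, whereas miR-133 is tied to myoblast proliferation and represses serum response factor, and genes of the pair lie in shared clusters. In the locust, miR-133 also acts outside muscle, where it represses the dopamine synthesis genes henna and pale. The tissue taken was the abdominal carcass lined with fat body, which also holds body wall muscle.

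The mature sequences that the reporters detect, as given in the scanner files, are shown because they let the likeness of the pair to each other and to other reporters be judged. Capitals mark the seed, bases 2 to 8, and the sequences run 5′ to 3′.
ame-miR-1: uGGAAUGUaaagaaguauggag
ame-miR-133: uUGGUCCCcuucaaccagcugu
Both are 22 bases long. No full seed was shared, since 0 other reporters on the array had the seed of either miRNA. The first 6 bases of the ame-miR-1 seed did occur near the start of 2 others, ame-miR-3794 and ame-miR-3749. For ame-miR-133 this was so in 0. Aligned without gaps, the pair matched at no more than 7 positions, with a longest common run of 3 bases. The closest other reporter to ame-miR-1 matched at 12 positions (ame-miR-8, whose longest shared stretch was 7 bases), and the closest to ame-miR-133 at 11 (ame-miR-750, with a stretch of 6). Cross-hybridization was not tested. In the RefSeq annotation of assembly Amel_HAv3.1, both miRNA genes (Mir1-1 and Mir133) lie inside the span of 1 protein-coding gene, LOC550708. Each is the other's nearest miRNA gene, and 5 long non-coding RNA genes lie wholly between them. No coordinates are given, because the scanner files name no genome build.

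Each pool was hybridised to 1 array with 18 spots per miRNA. The median intensity of the empty spots of an array was 150.2 to 491.3, between 37 and 168 miRNAs per array were detected above them, and 127 miRNAs were tested. The number of arrays limits the precision. Levels are given on 2 scales. The normalized level is the log2 scanner intensity after background correction and quantile normalization, and the deposited intensity is the linear value of the authors' table. Reporters differ in how well they hybridise, so neither scale says which of the miRNAs was the more abundant.

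Both miRNAs were detected on all 12 arrays. ame-miR-1 stood above the background: the median of its spots was 2.15 to 13.6 times the 95th percentile of the empty spots. All 18 spots exceeded that bound on every array. Its lowest multiples, 2.15 and 2.63, came from dsRNA-GFP pool 3 and dsRNA-Vg pool 1, the pools with the lowest ame-miR-1 levels. ame-miR-133 lay nearer to the background, at 1.21 to 2.68 times the same bound, a range that holds those 2 lowest multiples. All its spots exceeded the bound on 11 arrays and 17 of 18 did so in dsRNA-GFP pool 1. That array had all 168 miRNAs detected, so detection there does not set ame-miR-133 apart. In that pool its spots ranged from 539.6 to 1356, with the next brightest at 900.8 and a coefficient of variation (CV) of 24.9%. Over the 12 arrays, the median CV of the spots was 9.34% for ame-miR-1 and 6.50% for ame-miR-133. The brightest spot of either miRNA read 6202, below the brightest spot of any array, 61540.

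ame-miR-1 was lower in the dsRNA-Vg pools than in 5 of the 6 dsRNA-GFP pools, on both scales. The sixth, dsRNA-GFP pool 3, was the lowest of all 12 on the normalized scale and the second lowest, after dsRNA-Vg pool 1, in the deposited table. Its deposited intensity ran from 1154 through a median of 2149.5 to 2714 in the dsRNA-Vg pools, against 1190 through a median of 3525.5 to 4753 in the dsRNA-GFP pools. The groups thus overlapped through dsRNA-GFP pool 3 at 1190, and the other 5 dsRNA-GFP pools, at 3107 or above, lay over every dsRNA-Vg pool. Over the 12 pools the highest intensity was 4.12 times the lowest.

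On the normalized scale ame-miR-1 had a level of 10.58 ± 0.47 in dsRNA-Vg pools and 11.01 ± 0.69 in dsRNA-GFP pools (SD, n = 6 each). From low to high, dsRNA-GFP pool 3 read 9.62 and dsRNA-Vg pools 1, 6 and 3 read 9.89, 10.27 and 10.36. dsRNA-Vg pools 2, 5 and 4 followed at 10.88, 11.02 and 11.04. dsRNA-GFP pools 2, 4, 1, 5 and 6 came last, from 11.15 to 11.43. Of the 11 steps between neighbours in this order, 6 were larger than 2 standard errors over the spots, and those among the 5 highest pools mostly were not. The lowest pools were well apart from the rest by this measure. It covers spot error only, and that error was taken before quantile normalization, unlike the steps.

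The difference in ame-miR-1 level, dsRNA-Vg minus dsRNA-GFP, was -0.44 on the log2 scale (SE 0.32), a fold change of 0.74 (95% CI 0.46 to 1.20), and did not pass (limma adjusted p = 0.535 over 127 miRNAs). Without dsRNA-GFP pool 3 it was -0.75 (SE 0.21, limma adjusted p = 0.152). The deposited table gave -0.61 (SE 0.32, limma adjusted p = 0.347). The calibration reporter PUC2PM, a control spike, was brighter on the dsRNA-Vg arrays (log2 difference 1.41). With it as a covariate the difference of ame-miR-1 was -0.999 (SE 0.45, limma adjusted p = 0.417), a fit that cannot fully part PUC2PM from the treatment.

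The difference of ame-miR-133 had the opposite sign. Its deposited intensity ran from 457 through a median of 543.5 to 681 in dsRNA-Vg pools, against 181 through a median of 425 to 605 in dsRNA-GFP pools. The groups overlapped: dsRNA-GFP pools 4 and 6, at 605 and 471, lay within the range of the dsRNA-Vg pools, and the other 4 lay below it. The highest of the 12 intensities was 3.76 times the lowest, with the extremes in dsRNA-Vg pool 1 and dsRNA-GFP pool 1.

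The normalized level of ame-miR-133 was 8.79 ± 0.20 in dsRNA-Vg pools and 8.36 ± 0.38 in dsRNA-GFP pools (SD, n = 6 each). dsRNA-Vg pools 1 and 6 were highest, at 9.13 and 8.93. dsRNA-GFP pools 1, 2 and 3 were lowest, at 7.86, 7.94 and 8.32. The other 7 pools fell between 8.64 and 8.73. No step between neighbours among them was larger than 2 standard errors over the spots, taken as for ame-miR-1. The groups thus parted at either end of the order and shared its middle.

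The difference in ame-miR-133 level was 0.44 on the log2 scale (SE 0.16), a fold change of 1.35 (95% CI 1.05 to 1.74, not adjusted for the number of miRNAs), and did not pass (limma adjusted p = 0.218). Its unadjusted limma p was 0.0215, and 14.2% of the 127 miRNAs had an unadjusted p under 0.05. After adjustment 0 of the 2 muscle miRNAs passed, where 1.57% of all miRNAs tested did. From deposited values the difference was 0.52 (SE 0.25, limma adjusted p = 0.314), and with PUC2PM as a covariate it was 0.60 (SE 0.25, limma adjusted p = 0.417).

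**Figure D1:**
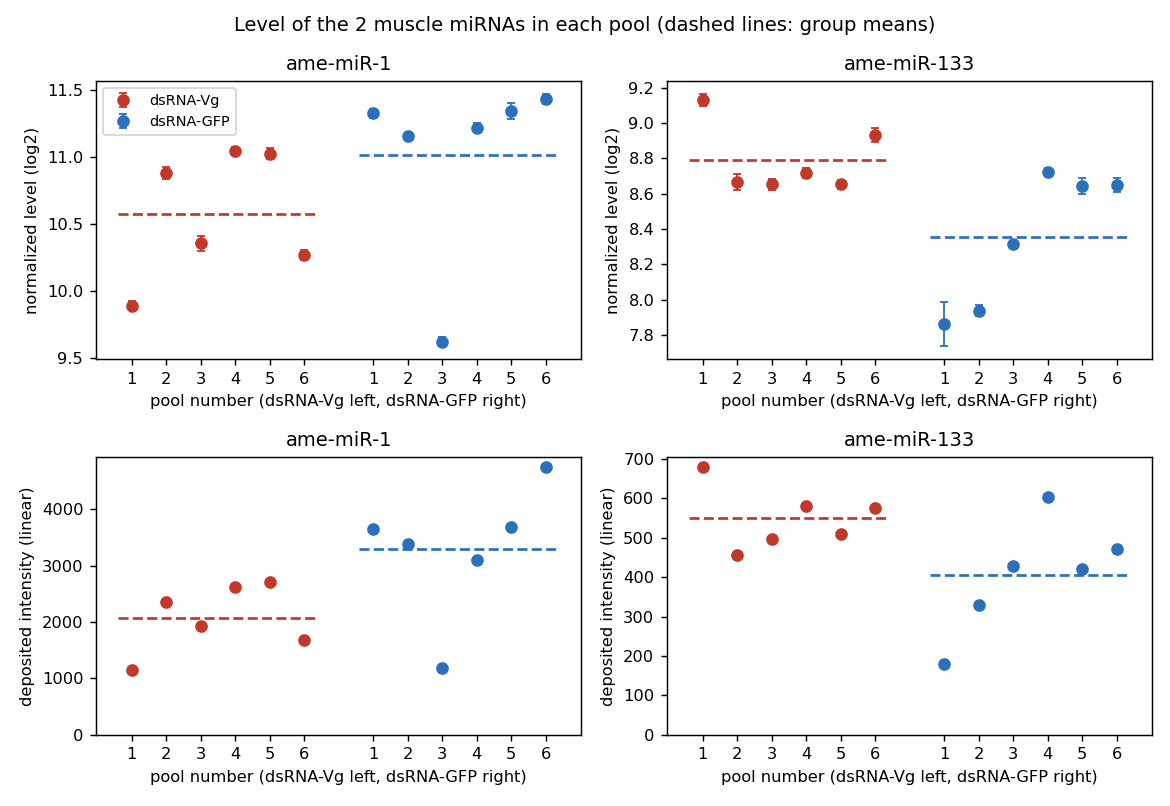
Level of ame-miR-1 (left) and ame-miR-133 (right) in each pool, as the normalized log2 level (top) and as the authors' deposited linear intensity (bottom). Bars at the top are 1 standard error over the 18 spots, taken before quantile normalization. Dashed lines are group means over 6 pools. ame-miR-1 sits above every dsRNA-Vg pool in 5 dsRNA-GFP pools. Its lowest point is dsRNA-GFP pool 3 at the top, at 9.62, and dsRNA-Vg pool 1 at the bottom, at 1154. ame-miR-133 is lowest in dsRNA-GFP pools 1 and 2.

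The sign of both differences was the same in all 24 alternative treatments of the data, negative for ame-miR-1 and positive for ame-miR-133, and neither passed in any of them. The 24 are not separate checks of the sign. Other filters, or pool number added to the fit, leave the difference unchanged by design, and fits with 1 pool left out share most pools. The size was less stable. For ame-miR-1 it was -0.12 with median scaling (limma adjusted p = 0.945) and -0.67 with cyclic loess (limma adjusted p = 0.363). For ame-miR-133 it was 0.20 with cyclic loess (limma adjusted p = 0.329), 0.28 without background correction and 0.68 with the empty-spot median subtracted (limma adjusted p = 0.304). Without normalization between arrays the median of all tested miRNAs itself lay at -0.22, and relative to it ame-miR-1 was at -0.15 and ame-miR-133 at 0.43.

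**Figure D2:**
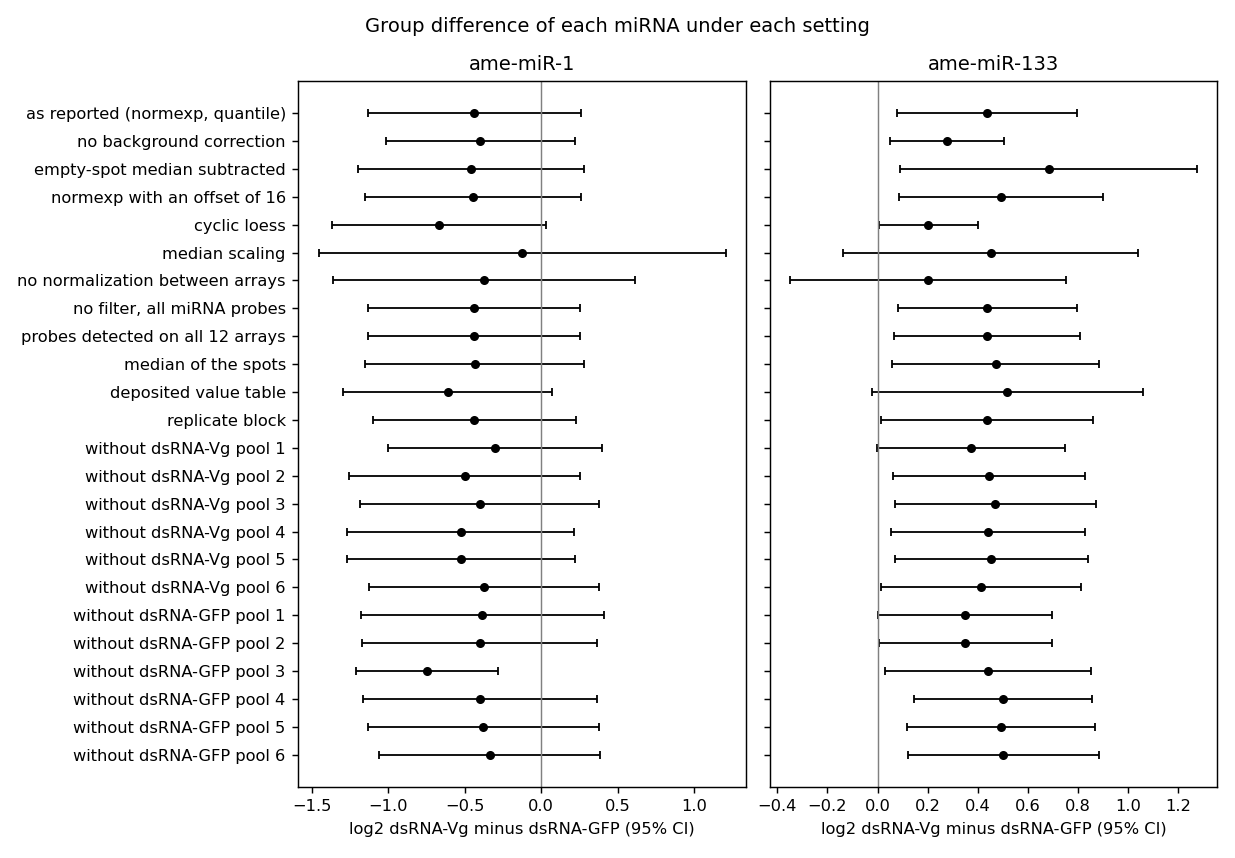
Difference in log2 level, dsRNA-Vg minus dsRNA-GFP, of ame-miR-1 (left) and ame-miR-133 (right) as reported and under alternative treatments of the data, with 95% confidence intervals from limma that are not adjusted for the number of miRNAs. Points lie left of 0 for ame-miR-1 and right of 0 for ame-miR-133 in every setting plotted, and among these the interval of ame-miR-1 leaves out 0 only without dsRNA-GFP pool 3. The fit with PUC2PM as a covariate is not plotted, and its unadjusted p for ame-miR-1 was 0.0485.

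The ratio of the pair was read to describe whether they move together. Whether admixed body wall muscle shaped it was not tested, since near-background ame-miR-133 signal and the normalization can also shift the ratio. The ratio was not constant. As deposited, the ame-miR-1 signal was 1.69 to 5.31 times that of ame-miR-133 in dsRNA-Vg pools and 2.78 to 20.2 times in dsRNA-GFP pools. These multiples carry the unequal hybridization of the reporters, so only their change between pools can be read. The extremes were dsRNA-Vg pool 1, where the ame-miR-1 signal was lowest relative to ame-miR-133, and dsRNA-GFP pool 1, where it was highest. The multiple of 20.2 in dsRNA-GFP pool 1 rests on an ame-miR-133 intensity of 181. There ame-miR-133 lay nearest to the background, at 1.21 times the bound, with a CV of 24.9%.

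As a difference of normalized log2 levels, ame-miR-133 minus ame-miR-1, the ratio was -1.78 ± 0.65 in dsRNA-Vg pools and -2.66 ± 0.75 in dsRNA-GFP pools (SD, n = 6 each), 0.88 higher after dsRNA-Vg. It ran from -2.37 to -0.76 in dsRNA-Vg pools and from -3.46 to -1.31 in dsRNA-GFP pools. Of the dsRNA-GFP pools, 5 lay below every dsRNA-Vg pool, and dsRNA-GFP pool 3, at -1.31, lay above 5 of the 6 dsRNA-Vg pools. From deposited values, 4 dsRNA-GFP pools lay below every dsRNA-Vg pool and the difference was 1.13. No p is given for the ratio, since the pair was chosen with earlier results on both known. Without dsRNA-GFP pool 3 the difference was 1.19. The groups then did not overlap, which follows from leaving out the only dsRNA-GFP pool that overlapped. With median scaling it was 0.58, and 3 dsRNA-GFP pools lay below every dsRNA-Vg pool.

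**Figure D3:**
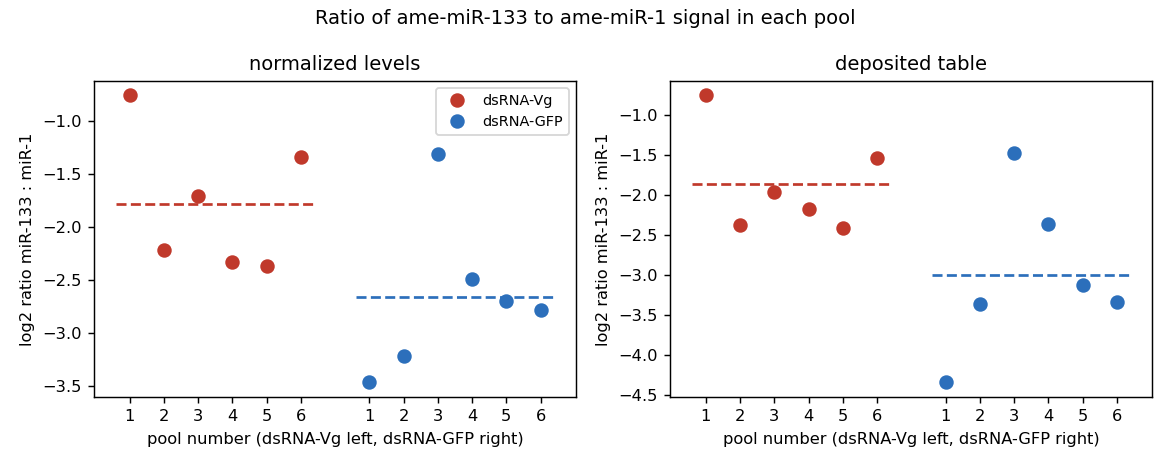
Log2 ratio of the ame-miR-133 to the ame-miR-1 signal in each pool, from normalized levels (left) and from the deposited table (right), with dashed lines at the group means. dsRNA-GFP pool 3 stands above the other 5 dsRNA-GFP pools, and dsRNA-Vg pool 1 is the highest of all 12.

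No joint variation of the pair between pools was detected on the normalized scale. Over the 12 pools, Pearson's r between the levels of ame-miR-1 and ame-miR-133 was -0.33 (two-sided permutation p = 0.291) and Spearman's rho was -0.41 (permutation p = 0.193). Without dsRNA-GFP pool 3 and dsRNA-Vg pool 1, the 2 pools farthest from the median of ame-miR-1, r was -0.44. With the group means removed r was -0.14 (permutation p = 0.684). Over the 6 dsRNA-Vg pools r was -0.81 (exact permutation p = 0.0722, rho -0.49 with exact permutation p = 0.356), and r was -0.63 without the 2 farthest pools. Over the 6 dsRNA-GFP pools r was 0.11 (exact permutation p = 0.747, rho 0.31 with exact permutation p = 0.564), and 0.17 without the 2 farthest. These within-group values were not stable across scales. With deposited values r was -0.70 over the dsRNA-Vg pools (exact permutation p = 0.142) and 0.42 without the 2 farthest, and it was -0.14 over the dsRNA-GFP pools (exact permutation p = 0.833) and -0.68 without the 2 farthest. Over the 3 relations on the normalized scale the Benjamini-Hochberg adjusted p was 0.436 for all pools, 0.217 for dsRNA-Vg and 0.747 for dsRNA-GFP by r, and 0.533, 0.533 and 0.564 by rho.

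The sign of this relation depended on how arrays were brought to a common scale. In the deposited table r was -0.44 (permutation p = 0.154), and with cyclic loess it was -0.73 (permutation p = 0.0074). With median scaling it was 0.61 (permutation p = 0.0363), and without normalization between arrays 0.56 (permutation p = 0.0597). Without normalization, ame-miR-133 had a positive r with 124 of the 126 other tested miRNAs and ame-miR-1 with 90. With median scaling these counts were 73 for ame-miR-133 and 74 for ame-miR-1. Ordered by r with ame-miR-133, ame-miR-1 ranked 36 of 126 without normalization and 42 of 126 with median scaling. With quantile normalization ame-miR-1 ranked 101 of 126 and with cyclic loess 125 of 126. Over the 9 treatments compared, the highest rank either miRNA reached for the other was 26 of 126, for ame-miR-133 with ame-miR-1 and no normalization.

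**Figure D4:**
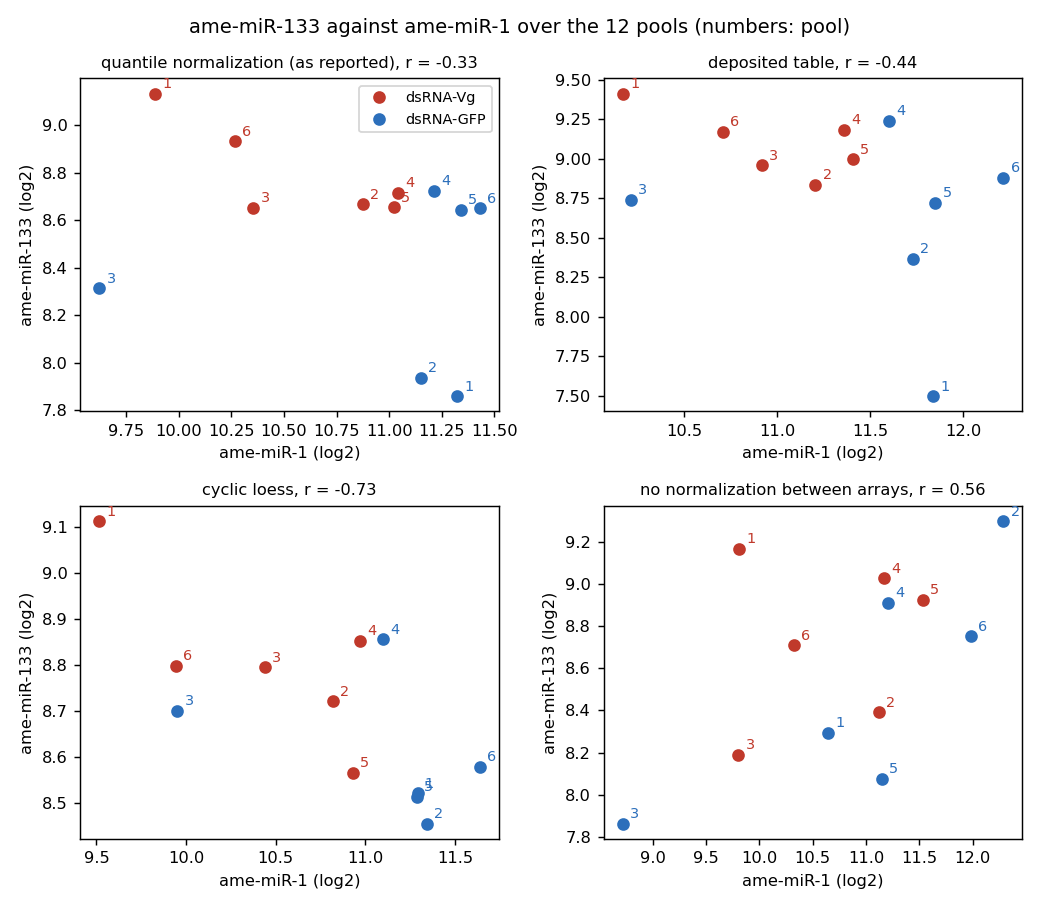
Level of ame-miR-133 against that of ame-miR-1 (both log2) in the 12 pools, numbered by pool, with quantile normalization, in the deposited table, with cyclic loess and without normalization between arrays. Pearson's r runs from -0.73 to 0.56 over these treatments, and dsRNA-GFP pool 3 lies at the low end of both miRNAs in the last.

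**Figure D5:**
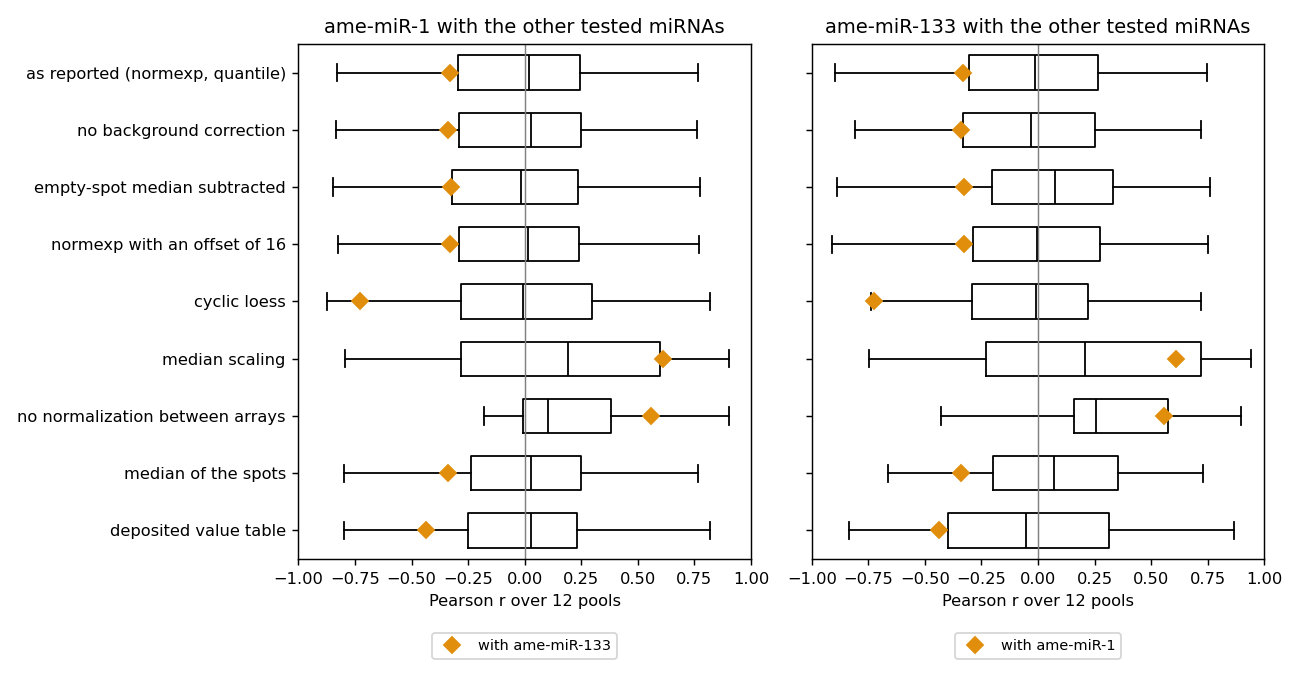
Pearson's r over 12 pools of ame-miR-1 (left) and ame-miR-133 (right) with each of the other tested miRNAs under each treatment. Boxes show the quartiles and median, whiskers the full range, and diamonds the r between the pair, which lies below the box median except with median scaling and without normalization.

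The miRNAs whose level over the 12 pools was most like that of ame-miR-1 were ame-let-7 (r = 0.77), ame-miR-87 (r = 0.74) and ame-miR-71 (r = 0.71), picked as the 3 highest r among 126. As deposited, their r was 0.77, 0.82 and 0.75. The first of them, ame-let-7, which in the fly acts in the remodelling of abdominal muscles and their nerves in the young adult, had deposited intensities of 244 to 442 in dsRNA-Vg pools and 385 to 762 in dsRNA-GFP pools. The lowest dsRNA-GFP pool for ame-let-7 was again pool 3. Its level was 8.41 ± 0.23 in dsRNA-Vg pools and 8.74 ± 0.46 in dsRNA-GFP pools (SD, n = 6 each). ame-miR-87 was also lowest in dsRNA-GFP pool 3 among the dsRNA-GFP pools, at 11.86 against 12.23 or above.

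Those most like ame-miR-133 were ame-miR-263b (r = 0.74), ame-miR-316 (r = 0.65) and ame-miR-34 (r = 0.64). This likeness held less well across scales. With deposited values r was 0.38 for ame-miR-263b and 0.14 for ame-miR-34, but 0.65 for ame-miR-316. ame-miR-263b, which in the fly protects sense organ cells from death, had a level of 9.09 ± 0.15 in dsRNA-Vg pools and 8.62 ± 0.35 in dsRNA-GFP pools (SD, n = 6 each). The r values are descriptions, since all points share their arrays and the partners were picked as the highest.

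Other miRNAs with a known part in fly muscle were listed as well. Of 4 (ame-miR-9a, ame-miR-92b, ame-let-7 and ame-miR-8), 4 were tested and 0 passed in either direction, where 1.57% of all miRNAs tested passed, so this count sets them apart in no way. They had a median log2 difference of -0.04, where the median of all 127 was -0.01. ame-miR-9a, which the fly needs for flight muscle, had a log2 difference of -0.06 (SE 0.13), and ame-miR-92b, which acts in the Mef2 circuit of fly muscle, one of 0.05 (SE 0.06). Both lay near the background and were detected on 9 and 8 arrays. ame-let-7 had a log2 difference of -0.33 (SE 0.20), and ame-miR-8, which acts on the muscle side of the fly nerve-muscle synapse, one of -0.01 (SE 0.14). Quantile normalization holds a miRNA as bright as ame-miR-8 near fixed values, and other treatments of all pools gave -0.19 to 0.38 for it. The 4 miRNAs also act in other tissues, and their r with ame-miR-1 ran from 0.18 to 0.77 and with ame-miR-133 from -0.30 to 0.35.

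Markers of other tissues of the carcass were read beside the pair. With 1.57% of all tested miRNAs passing, counts of 0 among a few markers say nothing about these tissues. Of 4 nerve markers, 2 were tested (ame-miR-124 and ame-miR-7) and 0 passed, and ame-miR-137 and ame-miR-932 were detected on 5 arrays each. The summed deposited intensity of the 4 was 127 to 313 in dsRNA-Vg pools and 187 to 314 in dsRNA-GFP pools. The gut markers ame-miR-281 and ame-miR-1175 summed to 111 to 1439 in dsRNA-Vg pools and 144 to 1650 in dsRNA-GFP pools, with 0 of 2 passing and log2 differences of -0.46 (SE 0.20) and -1.17 (SE 0.67). The epidermis and sense organ markers ame-miR-263, ame-miR-263b and ame-miR-31a summed to 1247 to 1477 in dsRNA-Vg pools and 913 to 1625 in dsRNA-GFP pools, with 0 of 3 passing. Their log2 differences were 0.19 (SE 0.12), 0.47 (SE 0.15) and 0.02 (SE 0.18). ame-miR-263b passed in 1 of 23 alternatives (limma adjusted p = 0.0356). The ovary marker ame-miR-989 ran from 50 to 99 in dsRNA-Vg pools and from 40 to 89 in dsRNA-GFP pools and did not pass. No marker was at 0, but neither was a dim miRNA such as ame-miR-3728, which was detected on 3 arrays and read 4 in dsRNA-Vg pool 6. A reading above 0 thus does not show that a tissue was present. The part of these tissues in the values of the pair was not tested. In bulk RNA, fewer muscle cells and less of a miRNA per cell cannot be told apart, and no miRNA was taken as a marker of fat body alone.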

How the data were processed

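Small RNA of 12 pools was extended with a poly(A) tail, tagged and stained with Cy3 by LC Sciences, per the labels' protocols. Per the file headers, the deposited scanner files hold the median intensity of each of 3968 spots of 1 array, with no local background. The deposited table holds 1 linear intensity per miRNA and pool, and how the authors corrected, normalized and centred it is not stated in the labels or headers. Scanner intensities were corrected with limma 3.58.1 (R 4.3.3; normexp, offset 50, on all spots) and log2 values of miRNA spots were quantile normalized and averaged per miRNA. This shrinks changes of dim miRNAs and holds bright ones near fixed values. Detection on an array needed 50% of a miRNA's spots to be brighter than the 95th percentile of its 628 empty spots. Those detected on at least 6 arrays (127) were tested with limma (lmFit, eBayes, group only) and Benjamini-Hochberg adjustment at 0.05, a fit tested on simulated data. Correlations used 100000 permutations, or all of them within a group (numpy 2.4.6, scipy 1.17.1). Groups and pool numbers come from the sample titles. Between arrays r was 0.921 to 0.996, and 0 pairs of arrays were identical. Same-numbered pools of the 2 groups were not treated as paired. Their deviations from the group means correlated at -0.33 to 0.70 over the 6 numbers, which does not settle whether they were paired. Named were the pair, the listed markers and muscle-linked miRNAs, and the 3 miRNAs with the highest r with each of the pair. The pair and the lists were chosen with earlier results of these data known. The alternatives were other background corrections, normalizations, filters and spot summaries, the deposited table, a block of pool number and the removal of each pool.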

Additional observations from a re-analysis of the deposited data

Results flagged for a closer look

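One pool lay apart from its group by Dixon's test in 6 of 44 sets of pool values, and chance gives this in about 1 in 20. On the normalized log2 scale, the level of ame-miR-1 was 9.62 in dsRNA-GFP pool 3, where the other dsRNA-GFP pools had at least 11.15, and ame-miR-87 read 11.86 in the same pool, against at least 12.23. Among the marker miRNAs, ame-miR-1175 read 10.25 in dsRNA-Vg pool 3, against at most 7.32 in the other dsRNA-Vg pools, and ame-miR-124 read 7.52 in dsRNA-Vg pool 1, against at most 7.04. In the dsRNA-GFP group, ame-miR-7 read 7.36 in pool 2, against at most 7.15, and ame-miR-92b read 7.26 in pool 1, against at most 7.08.

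The calibration control reporter PUC2PM, which the comparison of miRNAs did not use, was brighter on the dsRNA-Vg arrays. Its log2 signal before normalization between arrays was 11.18 ± 0.74 in dsRNA-Vg pools and 9.77 ± 0.62 in dsRNA-GFP pools (SD, n = 6 each), a difference of 1.41 (limma adjusted p = 0.0412 over 55 control reporters). With PUC2PM as a covariate, a fit added after its values were seen, the log2 difference was -0.999 for ame-miR-1 (SE 0.45) and 0.60 for ame-miR-133 (SE 0.25), with a limma adjusted p of 0.417 for each. On 4 dsRNA-Vg arrays PUC2PM read above every dsRNA-GFP array, so this fit cannot fully part it from the treatment. The part of PUC2PM in the levels of the pair was not tested beyond this fit.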

How the results depend on the processing

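Neither ame-miR-1 nor ame-miR-133 passed the threshold in any of 24 alternatives, and the sign of each difference was the same in all of them, with limma adjusted p of 0.152 to 0.945 for ame-miR-1 and 0.159 to 0.613 for ame-miR-133. Other filters and the block of pool number leave these differences unchanged by design, so their sign was fixed in advance. Leaving out 1 pool at a time gave log2 differences of -0.75 to -0.30 for ame-miR-1 and 0.35 to 0.50 for ame-miR-133, and 0.68 to 1.19 for their log2 ratio, which stayed positive in all 21 alternatives. For the ratio the block changes nothing, and median scaling and no normalization both give 0.58, since a shift of a whole array cancels in it. The 21 are thus not all separate checks. The correlation of the pair was -0.73 with cyclic loess, 0.61 with median scaling and 0.56 without normalization between arrays. It ran from -0.60 (permutation p = 0.048, without dsRNA-GFP pool 3) to -0.14 with 1 pool left out, and the cause was not tested. Among all miRNAs, 2 were called, against 1 with median scaling, 1 without normalization and 1 over the miRNAs detected on all 12 arrays. With 1 pool left out 2 to 3 were called. With PUC2PM as a covariate 0 were called by limma, in a fit chosen after seeing the data. PUC2PM differed between the groups, so that fit cannot fully part it from the treatment. Pool numbers were not taken to pair the groups. Of 12 pools, 5 correlated best with their own number in the other group, which leaves pairing unsettled. With the pool number as a block 3 miRNAs were called, ame-miR-1 had -0.44 (limma adjusted p = 0.461) and ame-miR-133 0.44 (limma adjusted p = 0.244). A slide or scan batch is not named in the scanner files, so a block for it was not run. The signal of ame-miR-133 over background, 1.21 times the bound in dsRNA-GFP pool 1, limits what its differences can show.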
